A study of Homo sapiens with 8 samples.

Results

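The genes described here are 35 genes of the endoplasmic reticulum (ER) that fold secreted proteins, carry them across the ER membrane, remove misfolded ones and sense folding load. They were taken by name from a list of such genes, with FPKM (fragments per kilobase, relative to library size) summed over the transcripts of each gene. All 35 were found among the 24351 genes of the table, and all 35 were among the 14905 genes that passed a filter of at least 1 FPKM in at least 2 libraries. By role the list holds 9 chaperones and cochaperones, 6 lectin chaperones and disulfide isomerases, 5 translocon genes, 12 genes of ER-associated degradation (ERAD) and 3 sensors of the unfolded protein response.

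The RNA came from human cell lines of multiple myeloma, a tumour of plasma cells, named ARP1 and H929, and was read by sequencing. Each line gave 4 libraries: CHEK1 overexpression, the control of overexpression, CHEK1 knockdown, and the control of knockdown. CHEK1 encodes the checkpoint kinase CHK1, which acts in the response to DNA damage and stalled replication. The labels give neither the construct or agent that raised or lowered CHEK1, nor a time, nor whether a line was a clone. With 1 library per line and genotype, the lines served as the replicates (n = 2 per genotype), so each p-value speaks only of the spread between these libraries. The overexpression library and its control are called the overexpression arm, and the knockdown library and its control the knockdown arm. Labels give no date or batch, so a difference between the arms and a difference in when or how they were prepared cannot be told apart.

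Plasma cells secrete large amounts of antibody and carry an extended ER. New chains enter through the SEC61 channel, are folded by the chaperone HSPA5 (BiP), by HSP90B1 (GRP94), by the lectins calreticulin and calnexin and by protein disulfide isomerases, and are sent back to the cytosol for degradation when folding fails. The sensors ERN1 (IRE1), EIF2AK3 (PERK) and ATF6 respond to unfolded protein: ERN1 splices XBP1 mRNA, EIF2AK3 slows translation and favours ATF4, and ATF6 is cut to release a transcription factor.

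CHEK1 itself checks the labels, although the tested gene STT3A overlaps it. In ARP1 it read 78.2 FPKM in the control of overexpression, 114 with overexpression, 61.0 in the control of knockdown and 51.6 with knockdown. In H929 it stood at 81.6 and 107 FPKM in the overexpression arm, and at 80.7 in the control of knockdown and 84.8 in the library labelled knockdown. CHEK1 RNA was thus higher with overexpression in both lines, lower with knockdown in ARP1, and slightly higher with the knockdown label in H929. The ARP1 step from 61.0 to 51.6 FPKM was smaller than the gap between the ARP1 controls, 78.2 and 61.0, so lower CHEK1 RNA was not established in either line. By limma the change was 0.47 ± 0.20 (log2, SE) for overexpression (adjusted p = 0.994) and -0.08 ± 0.20 for knockdown (adjusted p = 0.903). Every direction below that rests on the knockdown libraries carries this limit. All 9 plasma cell markers were measured, with a summed level of 1725.5 to 3039 FPKM per library, although SLAMF7 was near 0 in H929 (0.0778 to 0.201 FPKM). Markers of other cell types summed to at most 14.3 FPKM in a library for T and natural killer cells, 13.7 for epithelium, 7.26 for stroma, 2.9 for myeloid cells, 1.95 for erythroid cells and 0.164 for fat. The highest single ones were GNLY at 14.2 and KRT18 at 10.5 FPKM in H929 overexpression and PDGFRB at 4.05 in H929 knockdown. The B cell gene PAX5 reached 3.75 FPKM in ARP1. CD3D, NKG7, ADIPOQ and FABP4 were listed at 0 in all 8 libraries.

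The 35 genes together made up between 0.639% and 0.984% of the summed FPKM of a library. Calreticulin (CALR), a calcium-binding lectin chaperone, had the highest mean, 730 FPKM over the 8 libraries (370 to 1035), followed by the disulfide isomerase PDIA6 at 715 (584 to 921) and the channel subunit SEC61G at 665 (577 to 787). The ranges of these 3 overlapped, so their order is not resolved. The lowest SEC61G value, 577, lay above the highest of CANX, 517. Next came CANX (calnexin) at 403, HSP90B1 at 353, the disulfide isomerase P4HB at 331, SEC61B at 281, SEC61A1 at 196 and HSPA5 at 186 FPKM, each range overlapping that of its neighbour. In all, 13 of the 35 had a mean of at least 100 FPKM, namely 4 of the 9 chaperones, all 6 lectins and isomerases and 3 of the 5 translocon genes, with no ERAD gene or sensor among them.

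At the low end stood the mannosidase-like EDEM2 at 8.74 FPKM (7.21 to 9.86), the cochaperone DNAJB9 (ERdj4) at 11.8 (7.42 to 16.0) and the sensor EIF2AK3 at 15.3 (13.1 to 18.8). The sensor ATF6 varied least, with a highest value 1.27 times its lowest, then the translocon genes SEC62 (1.34 times) and SEC61G (1.36 times). The widest spread was that of another sensor, ERN1, 7.61 times, followed by HERPUD1 at 3.82, VCP at 3.54 and HSPA5 at 3.15 times. The ARP1 knockdown library held the highest ERN1 and HERPUD1 and the lowest VCP and HSPA5 of the 8.

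**Figure D1:**
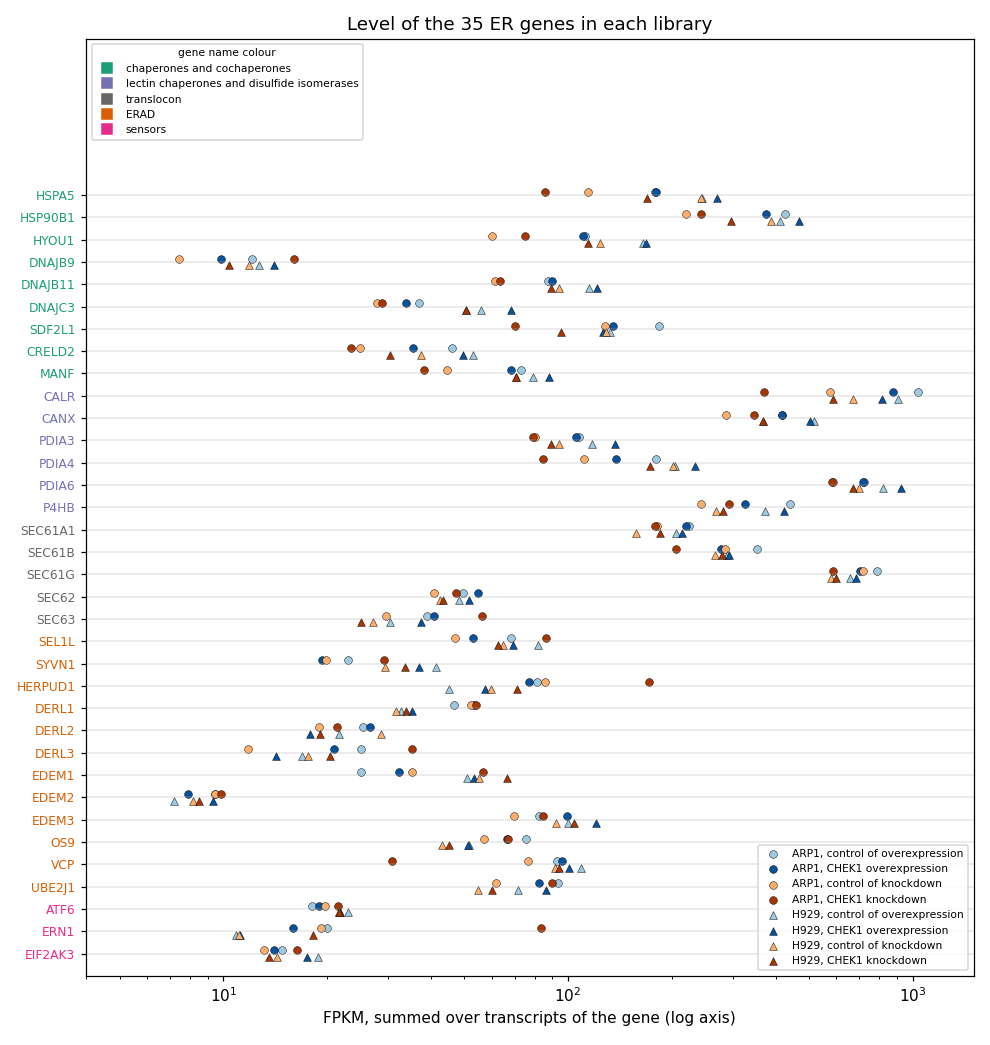
FPKM (log axis) of each of the 35 genes in each of the 8 libraries, ordered and coloured by role; circles are ARP1, triangles H929, blue the overexpression arm and orange or brown the knockdown arm. CALR, PDIA6 and SEC61G lie highest and EDEM2 lowest, and in many chaperone and isomerase genes the blue points lie to the right of the orange ones of the same shape.

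Promoters are printed for 5 members named in the results below, picked by hand, all of which carry a known stress motif. The stretches are the 250 bases before the annotated start site, 5′ to 3′ on the gene's strand, from RefSeq on GRCh38.p14. Capitals mark the ER stress response element (ERSE), CCAAT, 9 bases and CCACG, in HSPA5, HSP90B1 (a pair of copies) and CALR. They mark ERSE-II, ATTGG, any base and CCACG, in SDF2L1 and in HERPUD1, and in HERPUD1 also the amino acid response element (CARE), TGATGNAA, a motif known for ATF4 binding. Either strand was searched, so a motif may read as its reverse complement.
HSPA5 (chr9:125241344-125241593, minus strand): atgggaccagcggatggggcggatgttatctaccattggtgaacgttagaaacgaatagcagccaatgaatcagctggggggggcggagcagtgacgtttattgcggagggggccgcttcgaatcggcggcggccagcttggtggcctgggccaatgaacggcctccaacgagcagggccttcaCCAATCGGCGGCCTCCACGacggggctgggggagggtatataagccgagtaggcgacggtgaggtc
HSP90B1 (chr12:103930160-103930409, plus strand): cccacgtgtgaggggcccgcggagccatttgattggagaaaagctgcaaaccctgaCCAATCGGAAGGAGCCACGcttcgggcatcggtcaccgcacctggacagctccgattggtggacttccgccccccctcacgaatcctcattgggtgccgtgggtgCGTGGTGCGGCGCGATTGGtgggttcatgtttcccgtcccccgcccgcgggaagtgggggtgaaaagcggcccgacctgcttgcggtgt
CALR (chr19:12938359-12938608, plus strand): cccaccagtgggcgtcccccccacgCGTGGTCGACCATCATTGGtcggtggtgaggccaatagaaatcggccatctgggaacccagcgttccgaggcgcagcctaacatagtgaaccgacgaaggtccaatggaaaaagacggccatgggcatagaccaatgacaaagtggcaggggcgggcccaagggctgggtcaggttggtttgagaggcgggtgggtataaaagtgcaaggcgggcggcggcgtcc
SDF2L1 (chr22:21642052-21642301, plus strand): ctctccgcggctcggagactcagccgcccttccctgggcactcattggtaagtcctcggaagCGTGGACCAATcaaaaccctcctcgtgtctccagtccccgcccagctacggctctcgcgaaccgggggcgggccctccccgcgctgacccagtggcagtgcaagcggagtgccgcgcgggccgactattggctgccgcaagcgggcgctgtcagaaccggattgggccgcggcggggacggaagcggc
HERPUD1 (chr16:56931892-56932141, plus strand): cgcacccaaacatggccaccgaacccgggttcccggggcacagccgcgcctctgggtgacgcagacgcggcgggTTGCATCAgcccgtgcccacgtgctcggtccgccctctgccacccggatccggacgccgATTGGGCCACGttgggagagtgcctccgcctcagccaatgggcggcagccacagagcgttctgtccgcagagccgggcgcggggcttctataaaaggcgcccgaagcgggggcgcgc

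The ERSE of HSPA5 lies 66 to 48 bases before the start site, those of HSP90B1 at 194 to 176 and 89 to 71 bases, and that of CALR at 225 to 207 bases. ERSE-II lies at 188 to 178 bases in SDF2L1 and at 117 to 107 bases in HERPUD1, where the CARE lies at 176 to 169 bases. Of the 35 genes, 32 had at least 1 promoter in the table. A full ERSE stood within the 300 bases searched (250 before and 50 after the start) in 6 of these 32 genes, CALR, CANX, CRELD2, HSP90B1, HSPA5 and PDIA6, against 0.0769% of all 35116 promoters. ERSE-II stood in HERPUD1, HYOU1 and SDF2L1, against 0.0541% of all promoters. The unfolded protein response element (UPRE), TGACGTGG, stood in HYOU1, SEC62, UBE2J1 and VCP, against 0.729%, and the CARE in HERPUD1 alone, against 3.62%. The short CCACG that ends an ERSE stood in 25 of the 32 genes but also in 38.1% of all promoters. ERN1 and EDEM1, whose promoters are not printed, held no full ERSE, ERSE-II, UPRE or CARE. These are letter matches, and binding was not measured.

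The first comparison set the knockdown libraries against their own controls. No member passed an adjusted p of 0.05 (limma, Benjamini-Hochberg over all genes tested), against 0.0134% of all genes, 2 in number. At an unadjusted p under 0.05 there were 6 of 35, against 9.14% of all genes: ERN1, DERL3, HERPUD1 and EDEM1 with higher values and SDF2L1 and HSPA5 with lower ones. Of the 12 ERAD genes, 9 were higher in the knockdown library in both lines and 0 were lower in both. Of the 15 chaperones and isomerases, 2 were higher and 7 lower in both. Over all genes tested, 27.2% were higher in both lines and 28.9% lower in both. The difference between these groups of genes was not tested. The ERAD count depends on the control of knockdown. Against the control of overexpression, 8 ERAD genes were higher and 4 lower in ARP1, and 6 and 6 in H929. The ERAD medians were then 0.13 in ARP1 and -0.06 in H929, against -0.02 and 0.02 over all genes. In bulk RNA, a change in every cell and a change in the share of cells with a given state cannot be told apart.

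ERN1, the sensor and RNase of the response, showed the widest difference. In ARP1 it stood at 20.0 and 15.9 FPKM in the overexpression arm (control, then overexpression), at 19.2 in the control of knockdown and at 83.3 in the knockdown library. In H929 the same libraries stood at 10.9, 11.2, 11.1 and 18.2 FPKM. In each line the knockdown library lay above the other 3, which were close together. The log2 ratio was 2.06 in ARP1 and 0.66 in H929, and the fit gave 1.36 ± 0.38 (SE; unadjusted p = 0.00898, adjusted p = 0.494, limma). Both measured transcripts took part: ERN1-201 went from 10.5 to 56.8 FPKM in ARP1 and from 6.84 to 11.5 in H929, and ERN1-208 from 8.72 to 26.4 and from 4.27 to 6.74. The gene lies at chr17:64039142-64130819 on the minus strand (GRCh38, GENCODE 29), and no other tested gene overlaps it. The other sensors had smaller ratios. ATF6 read 18.1, 18.9, 19.7 and 21.5 FPKM in ARP1 and 23.0, 21.8, 21.6 and 21.6 in H929. EIF2AK3 read 14.8, 14.0, 13.1 and 16.3 FPKM in ARP1 and 18.8, 17.5, 14.3 and 13.6 in H929, with a knockdown change of 0.11 (adjusted p = 0.842, limma).

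Among ERAD genes HERPUD1, a membrane protein that holds the HRD1 ubiquitin ligase complex together, followed ERN1. It stood at 81.0, 77.1 and 85.7 FPKM in the first 3 ARP1 libraries and at 172 in the knockdown library, and at 45.0, 57.3, 59.6 and 70.9 in the 4 H929 libraries in the same order. The knockdown library was the highest of its line in both, by far in ARP1 and by a smaller step in H929. The fit gave 0.62 ± 0.21 (adjusted p = 0.538, limma). The noncoding gene AC012181.2 overlaps HERPUD1, and without a stated read strand their reads cannot be told apart.

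EDEM1, which hands misfolded glycoproteins to degradation, read 25.0, 32.3, 35.3 and 56.8 FPKM in ARP1 and 50.8, 53.2, 55.1 and 66.6 in H929. Again the knockdown library was the highest of each line. DERL3, a derlin of the retrotranslocation channel that is typical of secretory cells, read 25.0, 20.9, 11.8 and 35.3 FPKM in ARP1 and 16.9, 14.2, 17.6 and 20.4 in H929. Its ARP1 log2 ratio of 1.5 depends on the low control of knockdown, since against the control of overexpression it was 0.48. SYVN1 (HRD1), the ubiquitin ligase itself, read 23.0, 19.3, 19.9 and 29.3 FPKM in ARP1 and 41.4, 36.9, 29.5 and 33.7 in H929, so the H929 knockdown library lay above its own control and below both libraries of the other arm. SYVN1 overlaps FAU and MRPL49.

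Not all ERAD genes did the same. SEL1L, the partner of SYVN1, was higher in the ARP1 knockdown library, 86.5 against 47.1 FPKM, and 62.6 against 64.6 in H929. DERL2 read 18.9 and 21.3 FPKM (control of knockdown, then knockdown) in ARP1 and 28.6 and 19.1 in H929. The glycan-binding OS9, the mannosidases EDEM2 and EDEM3, DERL1 and the ubiquitin-conjugating UBE2J1 were higher in both lines than in the control of knockdown. The log2 ratios were 0.05 to 0.53 in ARP1 and 0.06 to 0.17 in H929. Against the control of overexpression, OS9 (-0.17 in ARP1, -0.2 in H929) and UBE2J1 (-0.06 and -0.25) were lower in both lines. EDEM2, EDEM3 and DERL1 were then still higher, by 0.03 to 0.21.

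VCP (p97), the ATPase that pulls substrates out of the membrane, stood apart from the other ERAD genes. It read 93.0, 96.0 and 76.4 FPKM in the first 3 ARP1 libraries and 30.8 in the knockdown library. In H929 it read 109, 100.5, 91.4 and 94.0 FPKM. A low value was seen in the ARP1 knockdown library alone, with log2 ratios of -1.28 in ARP1 and 0.04 in H929. The main transcript VCP-201 carried it, 64.0 to 26.6 FPKM in ARP1, and so did VCP-203, 12.1 to 3.36. VCP was singled out after its values were seen. Of the VCP-binding factors in the list of other ERAD genes, chosen here after the values of VCP were seen, UFD1 and NPLOC4 had lower values in both lines, and UBXN4 and FAF2 had ratios nearer to 0. UFD1 went from 132 to 83.8 FPKM in ARP1 and from 122 to 78.9 in H929 (-0.64 ± 0.17, adjusted p = 0.494, limma). This depends on the control of knockdown: against the control of overexpression the UFD1 log2 ratios were -0.28 in ARP1 and 0.09 in H929. Against its own control NPLOC4 had log2 ratios of -0.77 in ARP1 and -0.21 in H929, UBXN4 of 0.12 and 0.04, and FAF2 of -0.00 and -0.10. Without the ARP1 knockdown library the fitted knockdown change of VCP was 0.08, against -0.62 with it.

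Among chaperones, SDF2L1, a cofactor that keeps HSPA5 clients soluble, had the lowest value of each line in the knockdown library. It read 184, 135, 128 and 70.1 FPKM in ARP1 and 132, 126, 129 and 95.6 in H929, where the other 3 libraries lay within a narrow band. The fit gave -0.64 ± 0.21 (adjusted p = 0.529, limma). HSPA5 read 179, 180, 114 and 85.7 FPKM in ARP1 and 245, 270, 244 and 170 in H929. In H929 the control of knockdown stood with the overexpression arm and the knockdown library lay below all 3, while in ARP1 the control was already low. Its fitted change was -0.46 ± 0.18 (unadjusted p = 0.0384, adjusted p = 0.538, limma). CRELD2, a disulfide isomerase-like stress protein, read 46.0, 35.5, 24.9 and 23.4 FPKM in ARP1 and 53.1, 49.4, 37.4 and 30.5 in H929.

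CALR read 1035, 876, 575 and 370 FPKM in ARP1 and 909, 816, 670 and 586 in H929. It descended in the same library order in both lines, with knockdown log2 ratios of -0.63 and -0.19. PDIA4 (ERp72) read 180.0, 138, 111 and 84.6 FPKM in ARP1 and 204, 233, 201 and 173 in H929, the knockdown library again lowest in each. DNAJB9, a target of the ERN1 and XBP1 branch, did not share the direction of HSPA5 in ARP1: it read 7.42 and 16.0 FPKM there (control of knockdown, then knockdown) and 11.9 and 10.4 in H929. HSP90B1 values also went opposite ways, at 220 and 244 FPKM in ARP1 and 387 and 297 in H929. PDIA3 and PDIA6, isomerases for glycoproteins and for other clients, had log2 ratios of -0.02 and -0.01 in ARP1 and -0.08 and -0.06 in H929. P4HB had 0.27 and 0.06 in ARP1 and H929, and CANX 0.27 in ARP1 with no difference in H929. HYOU1, DNAJB11, DNAJC3 and MANF lay between -0.21 and 0.32 in ARP1 and between -0.11 and 0.00 in H929.

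**Figure D2:**
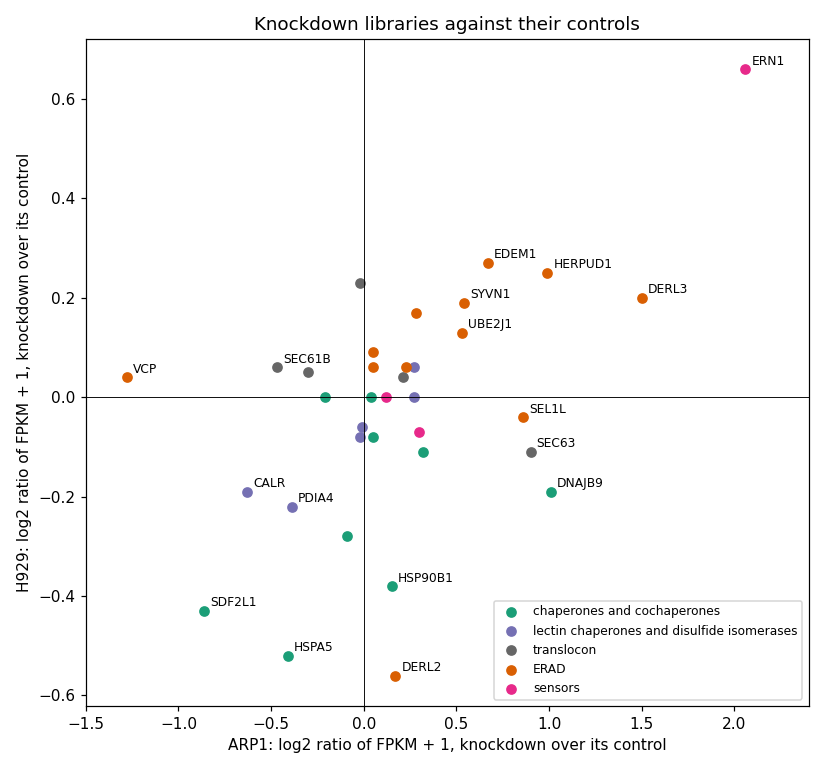
Log2 ratio of FPKM + 1, knockdown library over its own control, in ARP1 (x axis) and H929 (y axis) for the 35 genes, coloured by role. ERN1, HERPUD1, DERL3 and EDEM1 lie in the upper right, SDF2L1, HSPA5, CALR and PDIA4 in the lower left, and VCP far left at an H929 ratio of 0.04.

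Translocon genes showed no common direction. SEC63, a J-domain partner of the channel, stood at 38.9, 40.9, 29.7 and 56.3 FPKM in ARP1 and 30.4, 37.5, 27.2 and 25.1 in H929. SEC62 read 49.7, 54.7, 40.9 and 47.4 FPKM in ARP1 and 48.4, 51.7, 42.4 and 43.5 in H929. SEC61A1, the channel itself, read 224, 219, 181 and 179 FPKM in ARP1 and 206, 215, 158 and 185 in H929, so the arms did not overlap in either line and the knockdown library did not differ from its control in ARP1 by more than 0.02 on the log2 scale. SEC61B and SEC61G had their lowest ARP1 values in the knockdown library, 205.5 and 586 FPKM, and read 279 and 598 in the H929 one, above their controls of 268 and 577.

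The ratios were wider in ARP1. Past 1.5-fold against its own control, which has no test with 1 library a group, the ARP1 knockdown library had 7 members higher and 3 lower, against 12.4% and 13.5% of all genes. The H929 library had ERN1 higher and 0 lower, against 4.72% and 4.78%. No difference between the lines in the knockdown change passed adjustment for any gene (background 0%). At an unadjusted p under 0.05, 3 members differed, against 7.79% of all genes: ERN1 (1.36 ± 0.25, ARP1 minus H929), VCP (-1.34 ± 0.29) and SEC63 (0.90 ± 0.31), with adjusted p-values of 0.610, 0.610 and 0.625 (limma, line by genotype term with both controls of a line pooled). At this unadjusted level the share of members, 3 of 35, was near that of all genes. The overexpression change differed at that level for 0 members, against 1.87%.

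Leaving out the H929 library labelled knockdown leaves the ARP1 library alone in that group, so only effect sizes are given. The fitted knockdown change was then 2.09 for ERN1, -1.32 for VCP, 0.96 for HERPUD1, -0.96 for SDF2L1 and -0.76 for CALR. With all libraries these values were 1.36, -0.62, 0.62, -0.64 and -0.41. Without the ARP1 knockdown library the change of VCP was 0.08. Of the 9 plasma cell markers, 6 were higher and 3 lower in the ARP1 knockdown library than in its control, and 8 were higher and 1 lower in H929. In ARP1, IRF4 stood at 713 against 331 FPKM and TNFRSF17 at 195.5 against 68.4, while XBP1 stood at 823 against 976, MZB1 at 320 against 383 and ITGB7 at 552 against 617. Their part in the result was not tested.

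**Figure D3:**
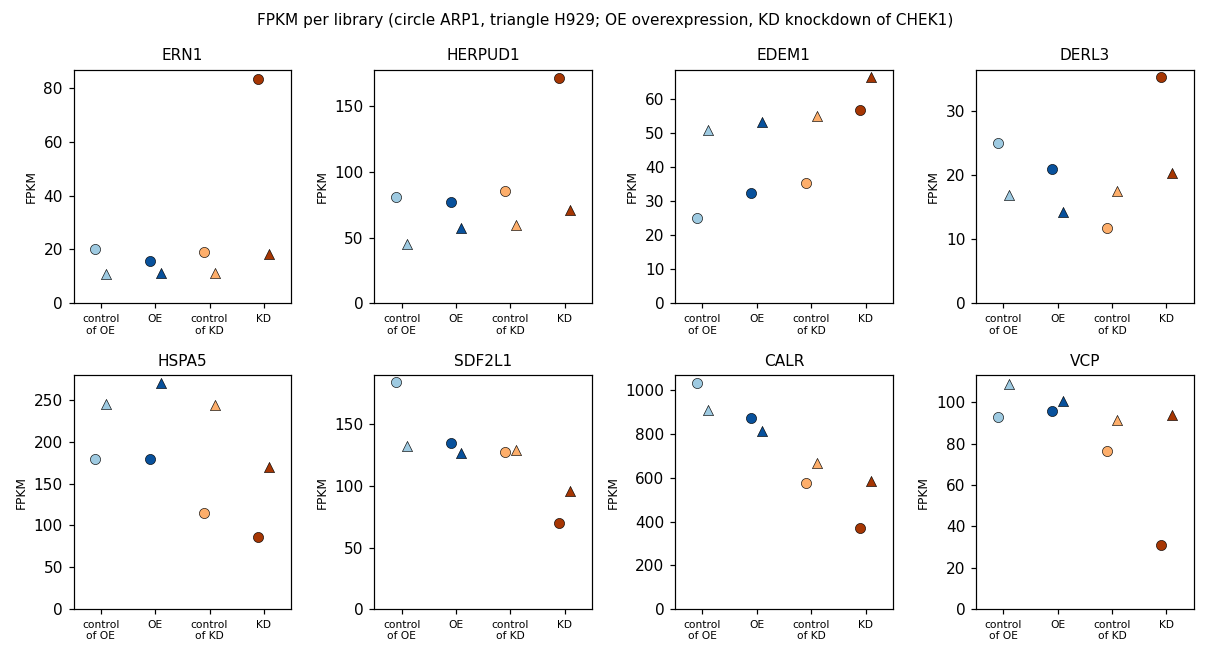
FPKM per library of 8 members by genotype, circles for ARP1 and triangles for H929, each axis from 0. ERN1 and HERPUD1 show 1 high circle at knockdown (83.3 and 172 FPKM) with a smaller step of the triangle, HSPA5, SDF2L1 and CALR have their lowest values there, and VCP shows 1 low circle at 30.8.

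Genes below the sensors were read from a list of 15. None passed adjustment for knockdown, and 5 had an unadjusted p under 0.05 (limma), against 9.14% of all genes. In both lines 9 were higher and 1 lower, against 27.2% and 28.9% of all genes. The median change was 0.09, against -0.02 over all genes tested. ATF4, the factor translated when EIF2AK3 is active, went from 347 to 618 FPKM in ARP1 and from 191 to 377 in H929 (0.90 ± 0.18, adjusted p = 0.450, limma). ATF3, its target, went from 8.37 to 28.9 and from 3.70 to 15.2 FPKM (1.73 ± 0.21, adjusted p = 0.261). TRIB3 went from 20.9 to 91.7 and from 17.5 to 28.8 FPKM. DDIT3 (CHOP), a factor linked to cell death under stress, went from 8.32 to 39.3 FPKM in ARP1 and from 9.51 to 11.7 in H929. DDIT3 overlaps MARS and MBD6. PPP1R15A (GADD34), which restores translation, went from 24.5 to 76.1 and from 21.6 to 29.3 FPKM. XBP1 did not share the direction, with 976 and 823 FPKM in ARP1 and 442 and 464 in H929. Its spliced form was not measured here.

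The remaining ER lists showed 0 genes past adjustment for knockdown, against 0.0134% of all genes. For the counts that follow, 27.2% of all genes tested were higher in both lines and 28.9% lower in both. Of 18 other oxidoreductases, cochaperones and prolyl isomerases, 6 were higher and 3 lower in both lines. ERP29, an escort of secretory proteins, went from 107 to 195 FPKM in ARP1 and from 59.6 to 88.1 in H929 (0.71 ± 0.18, adjusted p = 0.494, limma). Against the control of overexpression its log2 ratios were 0.48 in ARP1 and 0.0 in H929. Of 20 genes of COPII export and KDEL retrieval, 2 were higher and 8 lower in both lines, with a median of -0.13. Of 21 other ERAD factors, 4 were higher and 8 lower in both. The 19 genes of targeting, signal peptidase and TRAP had 8 higher and 4 lower, and the 18 of N-glycan transfer and trimming 7 higher and 8 lower.

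The controls of the 2 arms, which share the line and carry neither change of CHEK1, were compared with each other. In the control of overexpression 30 of the 35 had the higher value, with a median of 0.32 against -0.01 over all genes. All 9 chaperones, all 6 lectins and isomerases and all 5 translocon genes had the higher value there, as did 8 of 12 ERAD genes and 2 of 3 sensors. None passed adjustment, against 0.0537% of all genes, and 11 had an unadjusted p under 0.05, against 10.7%. CRELD2 (0.68 ± 0.14, unadjusted p = 0.00227, adjusted p = 0.319), P4HB (0.67 ± 0.17) and HYOU1 (0.65 ± 0.15) had the largest values by limma. HYOU1, a large HSP70-like chaperone, read 112 and 60.0 FPKM (control of overexpression, then control of knockdown) in ARP1 and 165 and 124 in H929. P4HB read 442 and 242 FPKM in ARP1 and 374 and 269 in H929.

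Whole arms were set side by side next. In both lines both libraries of the overexpression arm lay above both of the knockdown arm for 16 of 35 members, against 10.5% of all genes. They were HSPA5, HSP90B1, HYOU1, DNAJB11, DNAJC3, CRELD2, MANF, CALR, CANX, PDIA3, PDIA4, PDIA6, P4HB, SEC61A1, SEC62 and VCP. The reverse was seen for HERPUD1 and EDEM1, against 10.6%. Within ARP1 alone the counts were 18 above and 3 below, against 21.7% and 23.1%, and within H929 26 and 3, against 25.0% and 28.6%. In HSP90B1 the values were 425 and 374 FPKM in the overexpression arm and 220 and 244 in the knockdown arm of ARP1, and 412 and 466 against 387 and 297 in H929. CANX read 417 and 418 against 288 and 347 FPKM in ARP1 and 517 and 504 against 368 and 368 in H929. Its transcript CANX-201 overlapped between the arms in ARP1, 203 and 253 against 204 and 227 FPKM, but not in H929, 306 and 333 against 268 and 230. The shorter CANX-209 read 186 and 132 against 59.9 and 93.9 FPKM in ARP1. SEC62-201 overlapped in both lines, 18.9 and 23.0 against 21.7 and 19.9 FPKM in ARP1 and 25.0 and 25.9 against 26.6 and 21.3 in H929.

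A contrast of the arms, added after the values were seen, gave 0 members past adjustment, against 0.107% of all genes. At an unadjusted p under 0.05 there were 21 of 35, against 23.2%, and 28 of 35 were higher in the overexpression arm. The median was 0.23, against -0.02 over all genes. Chaperones had a median of 0.50 and lectins and isomerases of 0.45, ERAD genes one of 0.06. CALR had the largest value (0.75 ± 0.15, adjusted p = 0.0694, limma), and CRELD2 (0.65 ± 0.10, adjusted p = 0.0576) and HYOU1 (0.60 ± 0.11, adjusted p = 0.0628) came nearest to the threshold. ERN1 (-0.73 ± 0.27), HERPUD1 (-0.48 ± 0.15) and EDEM1 (-0.43 ± 0.14) had negative values. Without the H929 knockdown library 15 of the 35 members passed, against 14.4% of all genes (2119 of 14735 tested), and without the ARP1 knockdown library 1 passed, against 1.06% (154 of 14592). Which batch a library came from is not given by the labels, so arm and batch cannot be told apart.

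As sums of FPKM, the 9 chaperones stood at 1156 and 1037 in the overexpression arm of ARP1 and at 688 and 645 in the knockdown arm, and at 1271 and 1373 against 1149 and 928 in H929. The lectins and isomerases summed to 2902 and 2583 against 1885 and 1757 in ARP1 and to 2938 and 3034 against 2301 and 2169 in H929. The translocon genes summed to 1453 and 1298 against 1257 and 1074 in ARP1 and to 1232 and 1282 against 1072 and 1131 in H929. None of these 3 sums overlapped between the arms within a line, and no share over all genes is given for such sums. Single translocon genes did overlap in ARP1. SEC61G read 705 FPKM with overexpression and 719 in the control of knockdown, and SEC61B 278 and 286. The ERAD sum did not overlap between the arms in H929, 630 and 651 against 577 and 619, but did in ARP1, 648 and 635 against 545 and 737. The ratios within a line depended on which control was used. Against the control of overexpression in place of its own, the ARP1 knockdown library had 3 members higher and 10 lower past 1.5-fold, against 14.6% and 14.2% of all genes, and 8 of 9 chaperones had the lower value. The H929 knockdown library had 2 higher and 2 lower, against 8.47% and 5.74%.

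**Figure D4:**
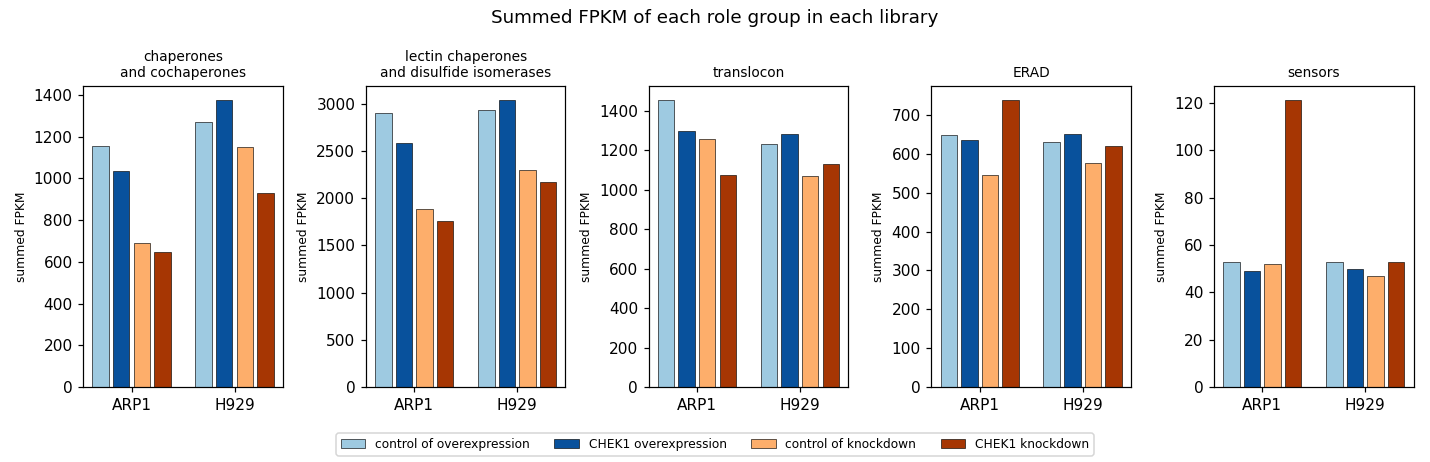
Summed FPKM of the members of each role in the 4 libraries of each line, bars from 0. Bars of the overexpression arm (blue) exceed those of the knockdown arm (orange, brown) for chaperones, for lectins and isomerases and for the translocon in both lines, while for ERAD the ARP1 knockdown bar is highest at 737, and for sensors at 121.

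CHEK1 overexpression was compared with its control to ask what more CHEK1 does. No member passed adjustment, against 0.00671% of all genes, and 0 had an unadjusted p under 0.05, against 4.45%. The median change was -0.00 with 16 of 35 positive, against -0.01 over all genes. Past 1.5-fold there were 0 members in either direction in either line, against 4.56% higher and 6.91% lower in ARP1 and 3.73% and 5.2% in H929. Against the control of knockdown in place of its own, the overexpression library had 6 members higher and 0 lower in ARP1, against 6.33% and 11.1% of all genes, and 2 higher and 1 lower in H929, against 7.19% and 11.3%. With their own controls, 7 members had the higher value with overexpression in both lines and 8 the lower one, against 28% and 30.1% of all genes. EDEM3 read 82.6 and 99.6 FPKM in ARP1 (control, then overexpression) and 99.7 and 120 in H929, a log2 ratio of 0.27 in each line. SEL1L read 68.1 and 53.1 FPKM in ARP1 and 82.0 and 69.3 in H929, ratios of -0.35 and -0.24. DERL3 had a ratio of -0.24 in each line. CALR, CRELD2 and SYVN1 had ratios of -0.36 to -0.10, and DERL1, SEC62, SEC63 and EDEM1 of 0.06 to 0.36.

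Of the 9 chaperones, 7 had the lower value with overexpression in ARP1 and 7 the higher value in H929, with medians of -0.13 and 0.13. HSPA5 and DNAJB11 were higher and SDF2L1 and CRELD2 lower in both lines, and the other 5 differed in sign. None had an unadjusted p under 0.05 for a difference between the lines. The knockdown change minus the overexpression change passed adjustment for 0 members, against 0.0134% of all genes, and 2 had an unadjusted p under 0.05, against 7.98%: ERN1 (1.51 ± 0.53, adjusted p = 0.621, limma) and DERL3 (1.09 ± 0.43, adjusted p = 0.621).

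More members differed between the lines, with 4 libraries each, than between genotypes. In all, 14 of 35 members passed adjustment, against 27.1% of all genes. Of these, 4 were higher in ARP1, against 13.7%, and 10 in H929, against 13.4%. Chaperones lay to the H929 side: 6 of 9 were called higher in H929 and 0 in ARP1, with a median of -0.48 (ARP1 minus H929, log2), against 0.00 over all genes. ERAD genes went both ways, 3 and 3, and 0 of the 5 translocon genes were called.

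DNAJC3 (p58IPK), a cochaperone of HSPA5, read 37.0, 33.8, 27.9 and 28.8 FPKM in ARP1 and 55.8, 68.2, 50.6 and 50.6 in H929, with no overlap (-0.80 ± 0.10, adjusted p = 0.00352, limma). HYOU1 read 112, 110.4, 60.0 and 75.1 FPKM in ARP1 and 165, 169, 124 and 115 in H929, again without overlap (-0.70 ± 0.11, adjusted p = 0.0063). HSPA5 was higher in H929 in every genotype but its knockdown value of 170 FPKM lay under the 180 of ARP1 overexpression (-0.78 ± 0.13, adjusted p = 0.00753). DNAJB11 (ERdj3) read 87.3, 90.0, 61.3 and 63.6 FPKM in ARP1 and 115, 122, 94.3 and 89.1 in H929. MANF, a secreted stress factor, read 73.0, 68.4, 44.4 and 38.2 FPKM in ARP1 and 79.2, 88.3, 70.8 and 70.8 in H929. PDIA4 was the isomerase that passed (-0.70 ± 0.14, adjusted p = 0.0152), and CRELD2 passed by -0.40 ± 0.10 (adjusted p = 0.0288, limma).

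Among ERAD genes, DERL1 read 46.7, 53.2, 52.2 and 54.1 FPKM in ARP1 and 32.7, 35.2, 31.7 and 33.9 in H929, well apart (0.61 ± 0.09, adjusted p = 0.00536, limma). OS9 read 75.7, 66.6, 57.2 and 67.0 FPKM in ARP1 and 51.7, 51.3, 43.2 and 45.0 in H929 (0.47 ± 0.09, adjusted p = 0.0117). HERPUD1 was higher in ARP1 by 0.76 ± 0.15 (adjusted p = 0.0133), also without overlap. SYVN1 (-0.62 ± 0.14, adjusted p = 0.0198), EDEM1 (-0.64 ± 0.14, adjusted p = 0.0167) and EDEM3 (-0.31 ± 0.08, adjusted p = 0.0346) were higher in H929. EDEM3 read 82.6, 99.6, 69.5 and 84.4 FPKM in ARP1 and 99.7, 120, 92.4 and 104 in H929, the ARP1 overexpression value reaching into the H929 range.

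ERN1 was higher in ARP1 by 1.04 ± 0.27 (adjusted p = 0.0305, limma). Without the ARP1 knockdown library the difference was 0.67 with an adjusted p of 0.0105 (limma). With genotype as a term, leaving out 1 library also takes its partner in the other line out of the line difference. That fit therefore drops both knockdown libraries and does not single out the ARP1 library. The ERN1 call was lost without a control library of either arm and line (adjusted p = 0.0669 to 0.0777), with no filter on low values (0.0819), by its most abundant transcript (0.0772) and without the genotype term (0.13). Leaving out either knockdown library gave 15 members, against 28.1% or 28.3% of all genes. Leaving out any other library gave 7 or 8, against 13.2% to 16.9% of all genes. SYVN1, EDEM1, EDEM3 and CRELD2 each lost the call without any 1 of those 6 other libraries, with adjusted p-values up to 0.0876, 0.0696, 0.149 and 0.125 (limma). MANF lost it on leaving out any library other than a control of overexpression (up to 0.133), and PDIA4 without an overexpression library or a control of knockdown (up to 0.0653). HERPUD1 and OS9 lost it without a control of overexpression (up to 0.0596 and 0.0646), and DNAJB11 without a control of knockdown (up to 0.0564). EDEM3 also lost it with quantile scaling (0.0526), and EDEM3, MANF and CRELD2 without a variance trend (0.0749, 0.0634 and 0.0516). DNAJC3, HYOU1, HSPA5 and DERL1 passed in all 8 fits with 1 library left out. These fits hold only 4 distinct estimates of the line difference, 1 per genotype dropped, and are not 8 separate checks. Without the genotype term, which matches libraries across the lines, 6 members passed, against 21.3% of all genes, and HSPA5 had an adjusted p of 0.0508.

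Libraries of the lines did not overlap for 3 members higher in ARP1 (DERL1, HERPUD1 and OS9), against 13.3% of all genes, and for 4 higher in H929 (ATF6, DNAJC3, HYOU1 and SYVN1), against 13.7%. Among the genes below the sensors, XBP1 was higher in ARP1 (0.85 ± 0.10, adjusted p = 0.00321, limma). So were ATF3 (0.72 ± 0.15, adjusted p = 0.0167) and ATF4 (0.52 ± 0.13, adjusted p = 0.0285, limma). Of the 15, 4 were called higher in ARP1, against 13.7% of all genes, and 1 higher in H929, against 13.4%.

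**Figure D5:**
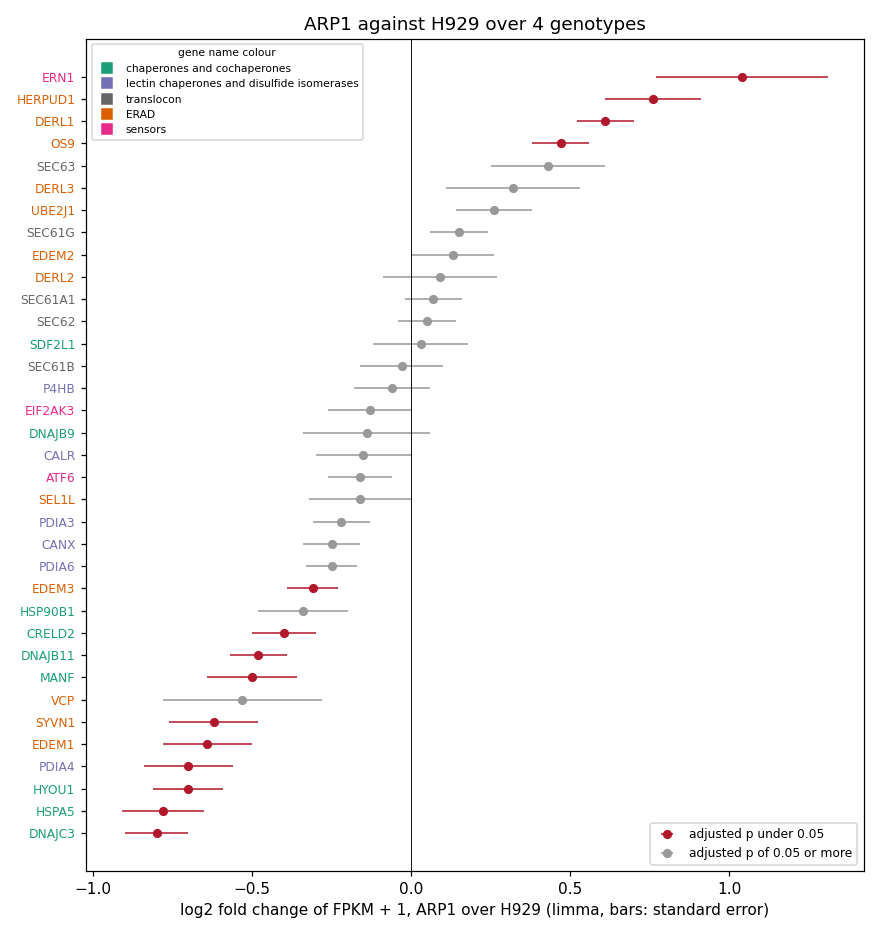
Log2 fold change of FPKM + 1, ARP1 over H929, for the 35 genes with standard errors from limma over 8 libraries; red marks the 14 genes with an adjusted p under 0.05. DNAJC3, HSPA5, HYOU1 and PDIA4 lie furthest to the H929 side (left) and ERN1, HERPUD1, DERL1 and OS9 furthest to the ARP1 side.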

How the data were processed

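RNA from 8 libraries of 2 human myeloma lines was measured. The authors deposited FPKM per transcript, a value the table calls a mean without saying of what. Per the submitters' processing notes the tools were StringTie 1.3.0, HISAT2 2.0 and Bowtie 0.12.2, and the build mm8, of mouse, is listed. Identifiers in the table are human, and the human build and the read strand are not given in the sources used here. Read depth is unknown, so no counting error is given. Summed FPKM was 631871 to 693299 per library. Per the labels' protocols the RNA was poly(A)-selected and sequenced as paired ends; their text also mentions adipose tissue, and no fat cell marker of the list used exceeded 0.132 FPKM.

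Transcripts (87707 of 88209 matched) were joined to GENCODE 29 and FPKM summed per gene. Of 35 members, 18 overlap another tested gene, and PDIA3 has a pseudogene, PDIA3P1, in the table. Genes reaching 1 FPKM in 2 or more libraries were tested on log2(FPKM + 1), a scale that understates changes of low genes, with limma 3.58.1 (R 4.3.3, moderated variances with a trend, two-sided, Benjamini-Hochberg, threshold 0.05). Genotype and cell line were terms, the line pairing the libraries by the labels (3 residual and 3.7 prior degrees of freedom). The line by genotype fit left 2 and 3.1. The fit was tested on simulated data. Tables were made with Python 3.11.15 and pandas 2.3.3.

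Members and gene lists were chosen with earlier results of these data known. Members given with every library's value were those past the threshold, the 5 largest same-sign changes in each direction for knockdown and for overexpression, the 5 largest and smallest line differences, and HSPA5, HSP90B1, HERPUD1, SEC61A1 and the sensors; VCP and the other genes were added after their values were seen. Alternatives covered pseudocount, filter, scaling, transcript choice, variance model, line term, pooled controls and each library left out.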

Additional observations from a re-analysis of the deposited data

Results flagged for a closer look

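Within each line, each member's 4 libraries were checked for a value whose gap to the next, as a share of the range, exceeded Dixon's 95% critical value. Of 70 such groups, 4 had one, where chance alone gives about 1 in 20. All 4 were knockdown libraries. ERN1 stood apart in both lines, at 83.3 FPKM in the ARP1 knockdown library and at 18.2 FPKM in the H929 library labelled knockdown. HERPUD1 stood apart at 172 FPKM in the ARP1 knockdown library. SDF2L1 stood apart on the low side, at 95.6 FPKM, in the H929 library labelled knockdown.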

How the results depend on the processing

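No member passed adjustment for knockdown, overexpression, their difference or the control comparison under any alternative that kept all libraries. Leaving out 1 library in turn gave 7 to 15 members for ARP1 against H929, against 13.2% to 28.3% of all genes. For a genotype, leaving out 1 of its libraries leaves 1 in the group, so only effect sizes are given. Over these fits the knockdown change of ERN1 ran from 0.63 to 2.09. Without a replicate block, which for the line comparison is the genotype term, that comparison gave 6 members in place of 14 (21.3% of all genes in place of 27.1%), and the block changed no other call count. With both controls pooled, the median change was -0.11 for knockdown and 0.11 for overexpression, in place of 0.07 and -0.00. The control of overexpression exceeded the control of knockdown by a median of 0.32 over the members, so a control that averages both shifts these medians. Why the controls differ was not tested.

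For the contrast of arms, 3 members passed with FPKM of at least 5 (against 2.74% of all genes), 3 with protein-coding transcripts only (2.72%), 2 without transcripts under 300 nt (1.73%) and 2 with FPKM weighted by transcript length (1.18%), against 0 (0.107%) as reported. Quantile scaling gave a median of 0.19. Leaving out 1 library gave 0 to 15 members, the 15 against 14.4% of all genes, and a median of 0.23 to 0.31.

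Single genes changed sign for overexpression: DERL3 (0.0004), CALR (0.12) and CRELD2 (0.11) with pooled controls, SYVN1 (0.13) by its most abundant transcript, and, with 1 library left out, EDEM1 (-0.027 to 0.45, lowest without the ARP1 control), CALR (-0.42 to 0.026, highest without the ARP1 control) and SEC63 (-0.023 to 0.39, lowest without the H929 overexpression library). VCP ran from -1.32 to 0.077 for knockdown, the last without the ARP1 knockdown library.

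Limits: there is 1 library per line and genotype, depth is unknown, and FPKM summed over transcripts cannot separate overlapping genes. The H929 library labelled knockdown had no lower CHEK1, and in ARP1 the step down was smaller than the gap between the controls.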
